A study of Mus musculus with 32 samples.

Results

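Mouse embryonic stem cells (ESCs) without a functional Rbpj gene were compared with their parental RGd2 cells in 2i, across every gene that was expressed in either. A gene counted as expressed when its mean level reached 1 CPM (counts per 1000000 gene counts of its library) in at least 1 of the 2 groups, and 13216 of the 51826 genes in the table did so. All 13216 had enough counts to be tested. The comparison rests on 6 of the 32 total RNA sequencing libraries of the series.

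RGd2 cells carry a destabilised GFP knocked into 1 copy of Rex1, a marker of naive pluripotency. The 3 Rbpj-KO libraries come from 3 clones, c28, c33 and c36, made in RGd2 cells with Cas9 and a pair of guides against different Rbpj exons. Each clone passed through transfection, puromycin selection and picking. Of the 3 RGd2 libraries, the first and second are the parental line 1903.4 and the third is a clonal derivative of it. All lines were kept in CH/LIF (the GSK3 inhibitor CHIR99021 with the cytokine LIF) and moved shortly before collection to 2i, in which CHIR99021 and the MEK inhibitor PD0325901 hold ESCs in the naive state. Nothing in the sources marks the libraries as pairs, and 3 mutant clones are set against 1 parental line and its derivative. The p-values below rest on the spread between libraries within all 11 groups of the series, part of which may be technical. Values are always given in the order c28, c33, c36 for Rbpj-KO and parental, parental, clonal for RGd2.

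RBPJ is the DNA-binding protein of the NOTCH pathway. A ligand of the Delta or Jagged family on 1 cell binds a NOTCH receptor on its neighbour, the receptor is cleaved, and its intracellular domain enters the nucleus. Without that domain RBPJ recruits corepressors and holds target genes down, and with it the same complex becomes an activator. In the embryo the pathway directs many choices between neighbouring cells, and Hes, Hey, Id and Nrarp genes are among its best known targets.

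The mutant clones showed higher RNA of Hey1, Nrarp, Id3, Hes1 and Prickle1 and lower RNA of the ligands Dll1 and Jag2. The rise of Hey1 was not kept under 2 of the 25 alternatives tried. Lef1, the most changed gene of the WNT response, fell to between 1.36 and 1.72 CPM from over 51 CPM. Of 22 expressed WNT targets 9 were lower, beside 6.79% of all expressed genes, and the summed RNA of the list was lower still in Etv5-KO cells. Etv4, Spry4 and Dusp6 were higher, Dnmt3b was lower while Dnmt3l was higher, and genes of the 2-cell-like state, among them Zscan4c and Zscan4d, were lower. Laminin a1, nestin and Eomes were among the genes that rose, and Cdh3 fell.

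The guides are shown because they fix which bases of Rbpj were meant to be lost. Each is printed 5′ to 3′ with the PAM, the letters Cas9 needs beside its target, in capitals.
RbpJ_Ex5: tgacctttatccgcttgctgAGG
RbpJ_Ex7: gcttgacagtctgcccgtaaTGG
Both match the minus strand of chromosome 5 in GRCm38, at chr5:53645980-53645999 in exon 5 and at chr5:53649718-53649737 in exon 7 of the 11 exons of transcript Rbpj-201, and both lie in coding sequence. Cuts at these sites would remove 3738 genomic bases, of which 258 are exon bases, or 4.73% of the 5459 bases of the transcript. Counts over the whole gene can therefore still be made from a transcript that lacks the deleted exons.

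Rbpj (ENSMUSG00000039191.12, chr5:53466152-53657362, plus strand) was measured at 34.6, 40.4 and 45.9 CPM in Rbpj-KO and 154, 157 and 165 CPM in RGd2. All 3 clones lay well below all RGd2 libraries, and RNA from the locus remained in each clone. The difference was a log2 fold change -2.02, SE 0.21, adjusted p = 3.44e-09 by the quasi-likelihood test of edgeR, and every adjusted p here comes from that test after Benjamini-Hochberg adjustment over all genes tested. With gene-based scaling it was -1.98.

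Some libraries stand apart. The clonal RGd2 library held 5986857 gene counts, against 13394552 to 37042477 in the other libraries, and reached 10 counts for 11933 of the expressed genes, against 12829 to 13183. It differed from both parental libraries by a chi-square of 43.3 to 44.3 per gene, where the parental libraries differed from each other by 8.43 and the mutant clones by 12.2 to 22.8. It also had almost no RNA from the Y chromosome: Ddx3y, chosen after its values were seen, was at 32.1, 45.1 and 48.6 CPM in Rbpj-KO and at 87.1, 95.5 and 0 CPM in RGd2. Among the clones c28 had the shallowest library, with 13394552 gene counts. It differed from c33 and c36 by 20.2 and 22.8 per gene, where c33 and c36 differed by 12.2. The gene Gm26917 took 3.11% of the counts of c28 and 4.17% of those of the clonal RGd2 library, against 1.58% to 1.92% in the others. What lies behind these values was not tested. Clone c36 stood apart from the other clones in primitive endoderm markers, an extraembryonic cell type that ESC cultures can form. Its 11 markers summed to 46.5 CPM, against 5.23 and 7.36 CPM in the other clones and 3.94, 4.13 and 14 CPM in RGd2. Here Gata4 was at 0.224, 0.746 and 6 CPM in Rbpj-KO and Afp at 0 in every mutant library. In a bulk sample fewer cells of a type and less RNA per cell cannot be told apart. Values without these libraries are given beside the results they change.

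A pair of scalings was used throughout. The first takes the size of each library from the ERCC spike-ins, RNAs of known amount added to each sample, and the second (TMM, trimmed mean of M values) takes it from the genes. The share of counts on spike-ins was 1.25% ± 0.013 (SD, n = 3) for the clones and 1.19% ± 0.20 (SD, n = 3) for RGd2, a difference with an exact two-sided permutation p of 0.7, where 0.1 is the smallest that 3 against 3 can give. The spread lay in RGd2, at 0.991%, 1.19% and 1.39%. The median gene had a log2 fold change of -0.05 with spike-ins and 0.01 with TMM.

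With spike-ins 719 expressed genes were called higher in Rbpj-KO (5.44% of those expressed) and 932 lower (7.05%), where a call is an adjusted p under 0.05. With TMM 1435 were called higher (10.9%) and 1092 lower (8.26%), so the share of calls that were higher was 43.5% with spike-ins and 56.8% with TMM. No gene was called in opposite directions. The 719 higher genes were called under both scalings, as were 898 of the lower genes (6.79%), and these calls are used from here on. Of them 261 higher and 405 lower genes differed by at least 2-fold. All 6 libraries fell into separate ranges under both scalings for 635 of the 719 and for 700 of the 898, while 15.4% of all expressed genes did so in either direction. Single libraries weighed on these counts: with each of the 6 left out in turn, 401 of the higher and 452 of the lower genes kept their call every time. Without c36 and the clonal RGd2 library together, 478 and 676 did. With only these 6 libraries in the fit, 387 genes were higher and 483 lower with spike-ins. RGd2 cells after 5 passages in 2i, whose culture differs as well, were tried as another control after the data were seen, and where a named gene turned direction against them this is given beside it. A call lost against them without a turn is mostly not given beside the gene. In all, 41 named genes lost the call or turned against this control.

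**Figure D1:**
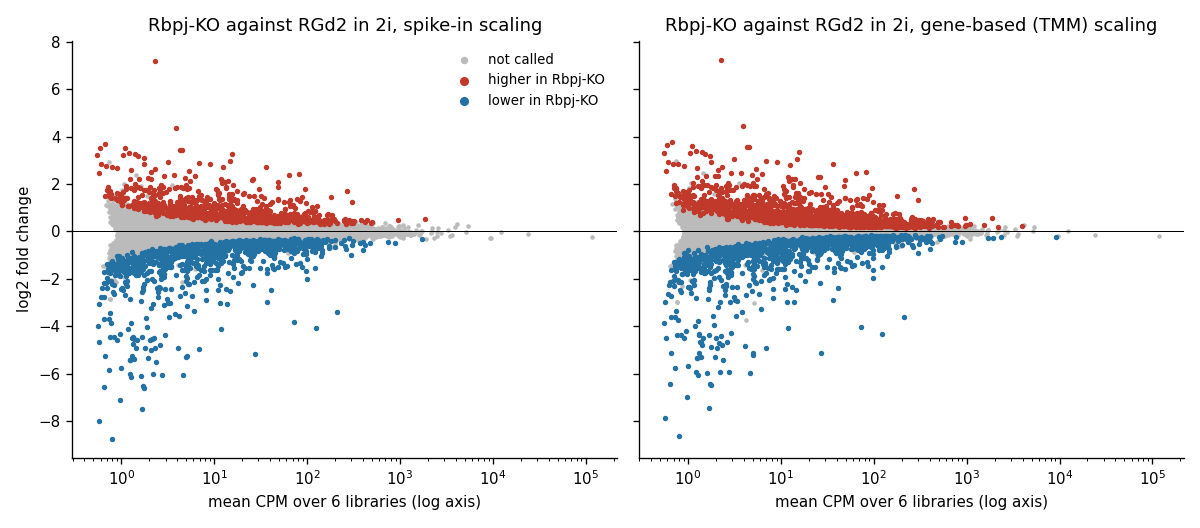
Log2 fold change of each expressed gene (Rbpj-KO against RGd2 in 2i, y axis) against its mean CPM over the 6 libraries (x axis, log scale), with spike-in scaling on the left and TMM on the right; coloured points are genes called higher or lower. The left panel holds 719 higher and 932 lower genes and the right panel 1435 and 1092, and the points furthest below 0 are genes with few or no counts in Rbpj-KO, whose fitted values depend on the prior count of the model.

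The leading higher genes are the 12 with the largest rise among called genes whose libraries were separate under both scalings and whose symbol is not a Gm or Rik number, so their lack of overlap comes from this choice. Htra1, a secreted serine protease, was at 25.1, 25.8 and 33.2 CPM in Rbpj-KO and 2.32, 2.55 and 4.68 CPM in RGd2. Every clone was over 5 times any RGd2 library (log2 fold change 3.26, SE 0.24, adjusted p = 5.44e-13). Pmaip1, which encodes the BH3-only protein NOXA, was at 9.56, 12.7 and 14.5 CPM in Rbpj-KO and 1.59, 1.5 and 1.67 CPM in RGd2 (log2 fold change 2.87, SE 0.21, adjusted p = 2.06e-13). Vax2, a homeobox gene of the ventral eye, was at 9.03, 7.39 and 8.69 CPM in Rbpj-KO and 0.94, 0.5 and 0.5 CPM in RGd2 (log2 fold change 3.44, SE 0.36, adjusted p = 2.24e-09). Ffar3, a receptor for short-chain fatty acids, was at 7.84, 7.36 and 7.05 CPM in Rbpj-KO and 0.16, 0.47 and 0.5 CPM in RGd2 (log2 fold change 4.36, SE 0.42, adjusted p = 6.96e-10). Slc13a5, a citrate transporter, rose by 2.95 on the log2 scale, Spns3 by 3.53, Olfr836 by 3.52 and Fgf10, an FGF ligand, by 3.22, all from levels of 1.03 CPM or less in each RGd2 library. Cubn and Klb rose by 3.41 and 3.21, but their highest level was in c36: Cubn was at 2.84, 2.58 and 16.8 CPM in the clones and Klb at 0.45, 1.32 and 3.9 CPM. Without c36 neither passed the test, at 1.87 and 2.13, nor did they without the second parental library (2.65 and 2.62), and Cubn also lost its call without the first (3.81).

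Among abundant genes that rose, Trh, which encodes the precursor of thyrotropin-releasing hormone, was at 404, 409 and 448 CPM in Rbpj-KO and 149, 132 and 70.2 CPM in RGd2. The clones lay close together and far above RGd2 (log2 fold change 1.73, SE 0.18, adjusted p = 2.25e-09). Rian, a maternally expressed non-coding RNA, was at 408, 430.2 and 461 CPM in Rbpj-KO and 189.9, 200.2 and 122 CPM in RGd2 (log2 fold change 1.25, SE 0.17, adjusted p = 6.61e-07), and Ak4, a mitochondrial adenylate kinase, at 268, 266 and 269.7 CPM in Rbpj-KO and 96.2, 101 and 80.3 CPM in RGd2 (log2 fold change 1.45, SE 0.13, adjusted p = 3.7e-11). In both genes all clones were above all RGd2 libraries. Nsf, needed for vesicle fusion, and the non-coding Gm47164 rose by 0.71 and 0.70.

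Among abundant genes that fell, Ldhb, a lactate dehydrogenase subunit, was at 195, 215 and 215 CPM in Rbpj-KO and 457, 419 and 287 CPM in RGd2 and the groups did not overlap (log2 fold change -0.99, SE 0.16, adjusted p = 1.81e-05). Lncenc1, a non-coding RNA abundant in naive ESCs, was at 350, 304 and 257 CPM in Rbpj-KO and 510.4, 537 and 452 CPM in RGd2, and it too had separate ranges (log2 fold change -0.78, SE 0.16, adjusted p = 0.000417). Lima1, which crosslinks actin, fell by 0.73 and the uridine phosphorylase gene Upp1 by 0.65. Without the first parental library Upp1 no longer passed the test with spike-ins, at -0.44. Against RGd2 after 5 passages in 2i, Lncenc1 (-0.10) and Upp1 (-0.080) did not pass with spike-ins. With TMM they were at -0.39 and -0.37 against that control and passed. Gm26870 was listed as lower only through the clonal RGd2 library: it was at 85.9, 7.77 and 7.23 CPM in Rbpj-KO and 6.75, 4.38 and 1162 CPM in RGd2, and without that library its log2 fold change turned to 2.39. It also turned against RGd2 after 5 passages in 2i (2.47, and 2.12 with TMM). It did not pass without c33 or c36 either (-2.89 and -2.87).

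Of the 12 genes that fell most by the same rule, 9 are in the list of the 2-cell-like state and are described with it, as is Zscan4-ps3, a pseudogene of the same family. The others were Neurog3 and Xlr5a, the latter without a count in any clone. Neurog3, a proneural transcription factor of the endocrine pancreas, was at 0, 0.03 and 0 CPM in Rbpj-KO and 2.21, 2.05 and 5.85 CPM in RGd2. With the clones at or below 3 counts each, it was at least 23.5-fold lower (adjusted p = 1.56e-10). Xlr5a, of an X-linked gene cluster, was at 0.78, 0.8 and 1.84 CPM in RGd2 and so at least 8.03-fold lower in the clones. It has near-identical copies, and reads that matched several of them equally were not counted.

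The Etv5-KO cells of the series, 3 clones grown the same way, are another mutant to set beside these. Their comparison shares the RGd2 libraries, so the values are set side by side and only the direct contrast of the mutants was tested. Trh was at 34.5, 32.5 and 30.9 CPM in Etv5-KO, below RGd2, and the mutants differed by 3.79 (adjusted p = 3.1e-18). Htra1 was at 3.64, 4.31 and 4.35 CPM and Pmaip1 at 2.64, 2.47 and 2.29 CPM in Etv5-KO, and the mutants differed by 2.88 and 2.43 (adjusted p = 2.17e-13 and 1.05e-13). Neurog3 remained at 1.57, 1.05 and 1.19 CPM in Etv5-KO (difference -6.11, adjusted p = 2.41e-08). Ffar3 was at 11.5, 13.5 and 13.8 CPM, above its level in Rbpj-KO, and the difference of -0.70 had an adjusted p of 0.0747 with spike-ins, while with TMM it was -0.87 and passed (adjusted p = 0.0305). In all, 15 of the 34 leading and abundant genes differed between the mutants under both scalings. The same 3 clones were also sequenced at N16h, after withdrawal of 2i, beside other RGd2 libraries. There 30 of the 34 were called with spike-ins in the same direction and 0 in the opposite one. The 34 were chosen by their change in 2i and the clones are the same, so this count is not independent evidence. The share of all expressed genes called at N16h or between the mutants is not given, so neither count can be set against it.

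Of 43 expressed genes for ligands, receptors, their processing, RBPJ and its cofactors, 3 rose and 4 fell, beside 5.44% and 6.79% of all expressed genes, and the median log2 fold change was 0.01. Among ligands, Dll1 was at 0.149, 0.102 and 0.371 CPM in Rbpj-KO and 3.21, 3.52 and 4.01 CPM in RGd2. It was almost lost in every clone (log2 fold change -4.03, SE 0.34, adjusted p = 2.22e-11). Jag2 was at 8.36, 3.87 and 3.9 CPM in Rbpj-KO and 12.4, 10.7 and 12 CPM in RGd2 and lower in every clone (log2 fold change -1.29, SE 0.21, adjusted p = 1.61e-05). Jag1 went the other way, at 48.2, 42.9 and 39.5 CPM in Rbpj-KO and 28, 26.9 and 19 CPM in RGd2 (log2 fold change 0.69, SE 0.15, adjusted p = 0.00112). The groups overlapped for none of these ligands.

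Among receptors, Notch3 was at 110.1, 79.9 and 71.3 CPM in Rbpj-KO and 49.3, 48.9 and 69 CPM in RGd2 (log2 fold change 0.62, SE 0.14, adjusted p = 0.00142). The lowest clone lay just above the highest RGd2 library, and without c28 the difference no longer passed the test with spike-ins, at 0.39. With RGd2 after 5 passages as the control it was -0.040 with TMM. Spen, which encodes a corepressor that binds RBPJ, was at 173, 138 and 161 CPM in Rbpj-KO and 82.2, 71.1 and 62.3 CPM in RGd2. It rose in every clone (log2 fold change 1.04, SE 0.14, adjusted p = 8.81e-07), and in Etv5-KO it was at 69.5, 66.2 and 73.1 CPM.

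Notch target genes moved more. Of 17 expressed targets 7 rose and 3 fell (median 0.14 with spike-ins and 0.21 with TMM, beside -0.05 and 0.01 over all expressed genes). Over all expressed genes 5.44% rose and 6.79% fell. Some of the list is among the genes the study itself singled out on these lines, so its direction is not independent evidence. Hey1, a repressor of the Hairy family, was at 9.63, 9.53 and 8.01 CPM in Rbpj-KO and 1.89, 1.91 and 2.17 CPM in RGd2 (log2 fold change 2.11, SE 0.21, adjusted p = 8.8e-10). Nrarp, a feedback inhibitor of NOTCH, was at 8.14, 7.53 and 6.99 CPM in Rbpj-KO and 1.54, 1.52 and 5.01 CPM in RGd2 (log2 fold change 1.80, SE 0.22, adjusted p = 7.38e-08). In both genes every clone was above every RGd2 library, and in Nrarp the clonal RGd2 library was the highest of its group. Hey1 lost its call under 2 of the 25 alternatives tried. Its lowest log2 fold change among them was 0.054, so its rise was almost absent there and depends on the choices made.

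Id3, an inhibitor of basic helix-loop-helix factors, was at 35.6, 30.1 and 26 CPM in Rbpj-KO and 9.07, 9.5 and 11.4 CPM in RGd2 (log2 fold change 1.57, SE 0.16, adjusted p = 1.4e-09), and Hes1, the classic NOTCH-induced repressor, at 37.6, 31.5 and 33.8 CPM in Rbpj-KO and 14.5, 13.1 and 26.7 CPM in RGd2 (log2 fold change 0.96, SE 0.14, adjusted p = 5.04e-06). The groups were separate for both, and Hes1 was at 14, 14.1 and 13 CPM in Etv5-KO. Id4 rose by 0.79, but with RGd2 after 5 passages as the control it was at -0.25 with TMM. Prickle1, of the planar cell polarity pathway, had the largest rise of the list, at 29.3, 24.8 and 25.5 CPM in Rbpj-KO and 3.94, 2.38 and 2.84 CPM in RGd2 (log2 fold change 2.96, SE 0.19, adjusted p = 1.21e-14). In Etv5-KO Prickle1 was at 7.67, 8.46 and 8.68 CPM, and the mutants differed by 1.78 (adjusted p = 4.19e-11).

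Gadd45g, a growth arrest and stress gene, was at 0.0747, 0.305 and 0.402 CPM in Rbpj-KO and 6.45, 6.37 and 4.01 CPM in RGd2. It was nearly lost in the clones (log2 fold change -4.38, SE 0.38, adjusted p = 3.06e-11), while Etv5-KO kept 3.85, 2.83 and 4.11 CPM. Cdkn1a, the cell cycle inhibitor p21, was at 37.3, 39 and 39.9 CPM in Rbpj-KO and 64, 54 and 59.1 CPM in RGd2 (log2 fold change -0.68, SE 0.14, adjusted p = 0.000924). Both fell in every clone without overlap.

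**Figure D2:**
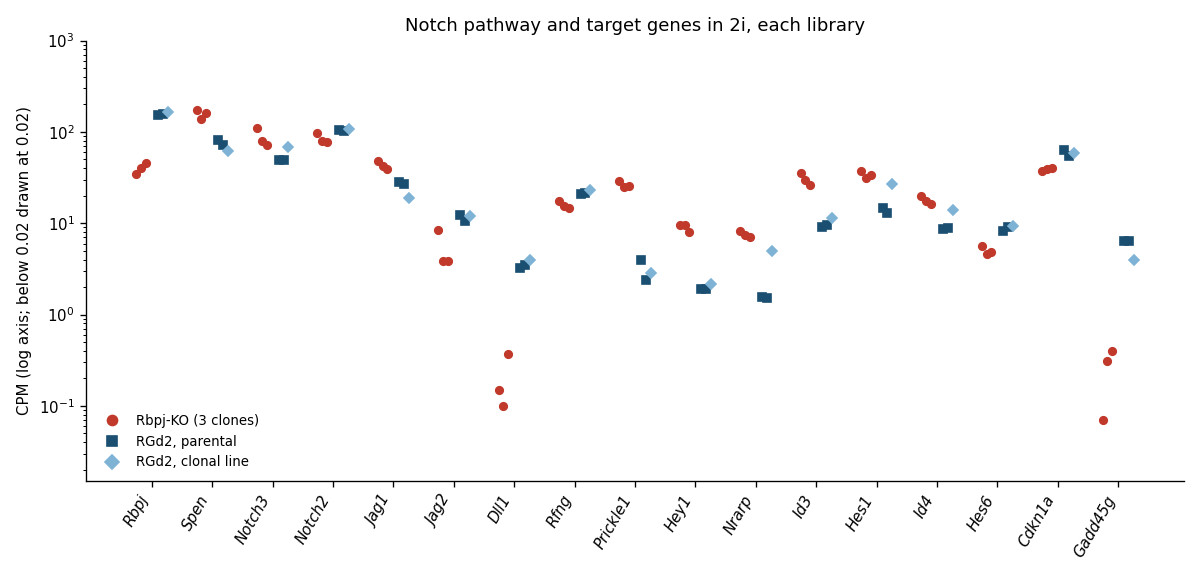
CPM per library (y axis, log scale) of Rbpj and of called genes of the NOTCH machinery and targets, with Rbpj-KO and RGd2 libraries as points of different colours. Hey1, Nrarp, Id3, Hes1 and Prickle1 lie higher in all 3 clones than in any RGd2 library, and Dll1 and Gadd45g lie below 0.5 CPM in every clone.

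RBPJ binds a core sequence of the letters TGGGAA. The core, read on both strands, was looked for in the RefSeq promoter windows, which run from 250 bases before to 50 bases after each gene start (GRCm38.p6). It was in 27.9% of 709 promoters of higher genes and 22.0% of 895 promoters of lower genes, beside 22.9% of 12457 promoters of expressed genes and 25.6% of all 32851. The longer GTGGGAA was in 8.74%, 4.92%, 5.94% and 6.38% of the same sets. Of the 10 called Notch targets, Hes1 and Hey1 were without a window, and 3 held the core: Id4, Gadd45g and 1 of 2 windows of Cdkn1a. Their surroundings are printed to show the match, with the core or its reverse complement in capitals, on the plus strand at chr13:48260866-48260905, chr13:51846685-51846724 and chr17:29093635-29093674.
Id4: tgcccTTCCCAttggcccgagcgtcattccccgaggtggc
Gadd45g: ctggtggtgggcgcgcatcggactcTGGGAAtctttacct
Cdkn1a: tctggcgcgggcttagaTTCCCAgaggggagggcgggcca
Of these genes Id4 rose and the others fell. A match is a description of letters and was not tested as a binding site.

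WNT target genes were measured in cultures that all held the GSK3 inhibitor, which stabilises beta-catenin. Of 22 expressed WNT target genes 9 fell and 1 rose, beside 6.79% and 5.44% of all expressed genes (median -0.42 with spike-ins and -0.38 with TMM). Lef1, a nuclear partner of beta-catenin and itself a target, was at 1.72, 1.36 and 1.64 CPM in Rbpj-KO and 54, 53.8 and 51.1 CPM in RGd2. The fall was more than 20-fold in every clone (log2 fold change -5.17, SE 0.23, adjusted p = 8.24e-20). Etv5-KO cells were also low, at 4.03, 2.53 and 3.38 CPM, and the log2 difference of Rbpj-KO from them was -1.01 (adjusted p = 0.0025).

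Notum, a secreted WNT inhibitor, was at 53.7, 42.7 and 45.6 CPM in Rbpj-KO and 133, 121 and 130 CPM in RGd2 (log2 fold change -1.5, SE 0.16, adjusted p = 3.44e-09). Sp8, a zinc finger factor, was at 5.2, 4.17 and 6.37 CPM in Rbpj-KO and 12, 13.3 and 24.1 CPM in RGd2 (log2 fold change -1.62, SE 0.21, adjusted p = 2.55e-07), and Tnfrsf19, a receptor of the TNF family, at 29.6, 31.5 and 30.9 CPM in Rbpj-KO and 74.6, 77.9 and 61.3 CPM in RGd2 (log2 fold change -1.30, SE 0.14, adjusted p = 3.64e-09). T, the mesoderm factor brachyury, was at 6.72, 6.04 and 3.99 CPM in Rbpj-KO and 13.8, 11.5 and 7.52 CPM in RGd2 (log2 fold change -1.19, SE 0.22, adjusted p = 0.000177). In all 4 genes the groups were separate. Without c36 the number of lower WNT targets with spike-ins went from 10 to 6, as it did without the first parental library, and without c33 to 5. Sp8 lost its call under 2 of the 25 alternatives tried and Notum under 1, with highest log2 fold changes of -0.27 and -0.38. Summed over the list, WNT target RNA came to 757 to 926 CPM in Rbpj-KO and 959 to 1050 CPM in RGd2. It was at 525 to 572 CPM in Etv5-KO. RGd2 after 5 passages in 2i, at 748 to 853 CPM, overlapped Rbpj-KO.

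ERK feedback genes, which normally follow FGF and MEK activity, were measured in cells with MEK inhibited. Of 19 expressed members 4 rose and 2 fell, beside 5.44% and 6.79% of all expressed genes, and the median was -0.01. Spry4, an inhibitor of receptor signalling, was at 3.43, 2.88 and 2.88 CPM in Rbpj-KO and 0.243, 0.333 and 0.668 CPM in RGd2 (log2 fold change 3.10, SE 0.27, adjusted p = 2.77e-11). Etv4, an ETS factor related to Etv5, was at 22.8, 17.6 and 19.3 CPM in Rbpj-KO and 3.62, 4.21 and 4.34 CPM in RGd2 (log2 fold change 2.22, SE 0.15, adjusted p = 1.66e-14). Both were higher in every clone. Etv4 was at 18.3, 15.1 and 20.2 CPM in Etv5-KO, and the mutants differed by 0.25 (adjusted p = 0.153). Dusp6, a phosphatase that acts on ERK, was at 22.2, 22.7 and 18.8 CPM in Rbpj-KO and 9.29, 7.79 and 13.2 CPM in RGd2 (log2 fold change 1.08, SE 0.13, adjusted p = 1.2e-07), whereas Dusp4, another such phosphatase, fell (log2 fold change -1.36, SE 0.24, adjusted p = 5.98e-05). Feedback genes thus did not move in a single direction.

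Of 23 naive pluripotency factors, all expressed, 2 rose and 3 fell, beside 5.44% and 6.79% of all expressed genes, and the median was 0.00. With TMM alone 7 rose and 4 fell, beside 10.9% and 8.26%. Klf4 was at 98.5, 73.4 and 78.9 CPM in Rbpj-KO and 45.5, 43.8 and 57.5 CPM in RGd2 (log2 fold change 0.74, SE 0.13, adjusted p = 7.3e-05). Nanog was at 1117, 1102 and 993 CPM in Rbpj-KO and 877, 919.9 and 849 CPM in RGd2, with a log2 fold change of 0.22 (adjusted p = 0.193) that passed the test with TMM only (0.27, adjusted p = 0.0032). Dppa3, a maternal factor that is also a primordial germ cell marker, was at 0.0747, 0.0678 and 0.309 CPM in Rbpj-KO and 4.13, 4.46 and 1 CPM in RGd2. It was the gene of the list that fell most (log2 fold change -4.47, SE 0.58, adjusted p = 3.16e-07). Nr0b1 and Dppa2 fell by 0.77 and 0.47 on the log2 scale, and Dppa2 turned to 0.079 against RGd2 after 5 passages. Nr0b1 lost its call under 1 of the 25 alternatives tried, and its highest log2 fold change among them was -0.11. Stat3, the effector of LIF, had a log2 fold change of 0.40 (adjusted p = 0.0289), which did not pass the test with spike-ins when any library other than the first parental one was left out (0.32 to 0.42).

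Formative and primed markers split. Of 25 expressed, 5 rose and 8 fell, beside 5.44% and 6.79% of all expressed genes (median -0.23 with spike-ins and -0.20 with TMM). Besides Lef1, Dnmt3b fell, at 62.5, 59.5 and 69.8 CPM in Rbpj-KO and 174, 165 and 198 CPM in RGd2 (log2 fold change -1.53, SE 0.13, adjusted p = 1.22e-11), and Sox4 fell, at 3.81, 3.76 and 4.11 CPM in Rbpj-KO and 11.4, 10.9 and 13 CPM in RGd2 (log2 fold change -1.65, SE 0.17, adjusted p = 2.29e-09). Sox4 turned direction against RGd2 after 5 passages in 2i (0.63, and 0.36 with TMM). Besides Etv4, Fst and Dnmt3l rose: Fst, which encodes the activin inhibitor follistatin, was at 21.3, 19.7 and 23.6 CPM in Rbpj-KO and 5.53, 5.2 and 6.35 CPM in RGd2 (log2 fold change 1.87, SE 0.23, adjusted p = 1.59e-07), and Dnmt3l at 138, 134 and 126 CPM in Rbpj-KO and 47, 44.9 and 45.6 CPM in RGd2 (log2 fold change 1.46, SE 0.15, adjusted p = 9.36e-10). The ranges were separate for each of these genes. Dnmt3l encodes the catalytically inactive cofactor of the de novo DNA methylation enzymes DNMT3A and DNMT3B, and Dnmt3a had a log2 fold change of -0.41 (adjusted p = 0.0239). Of 15 genes that write or remove DNA methylation 3 rose and 3 fell, with Tet2 at 0.45 and Gadd45a at 0.60. With spike-ins Tet2 did not pass without the clonal RGd2 library (0.29), Gadd45a without the second parental one (0.41), and Dnmt3a without c33, c36 or the first parental one (-0.39, -0.41 and -0.19). Against RGd2 after 5 passages Dnmt3a turned to 0.43 (0.15 with TMM) and Gadd45a to -0.055 (-0.34 with TMM).

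In the BMP, Nodal and activin pathways 2 of 30 expressed genes rose and 5 fell, beside 5.44% and 6.79% of all expressed genes (median -0.10). Lefty1, a Nodal antagonist and Nodal target, was at 53.7, 48.4 and 42.6 CPM in Rbpj-KO and 157, 140 and 146 CPM in RGd2 (log2 fold change -1.68, SE 0.16, adjusted p = 2.56e-10). Tdgf1, the Nodal coreceptor Cripto, was at 136, 181 and 203 CPM in Rbpj-KO and 77.5, 81.8 and 82.2 CPM in RGd2 (log2 fold change 1.05, SE 0.12, adjusted p = 2.68e-08). Antagonist and coreceptor moved in opposite directions, each without overlap between groups, though Tdgf1 was at -0.0057 with TMM against RGd2 after 5 passages. Inhbb, an activin subunit, had a log2 fold change of -1.73 at a low level, which turned to 1.32 (1.06 with TMM) against the later passage, and Smad6, an inhibitory SMAD, one of -1.14. In the LIF and STAT3 pathway 1 of 12 rose (Stat3) and 1 fell. The latter was Gbx2, a homeobox gene that answers LIF, at 1.27, 2.34 and 1.89 CPM in Rbpj-KO and 7.02, 6.9 and 10.5 CPM in RGd2 (log2 fold change -2.09, SE 0.22, adjusted p = 2.62e-09).

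**Figure D3:**
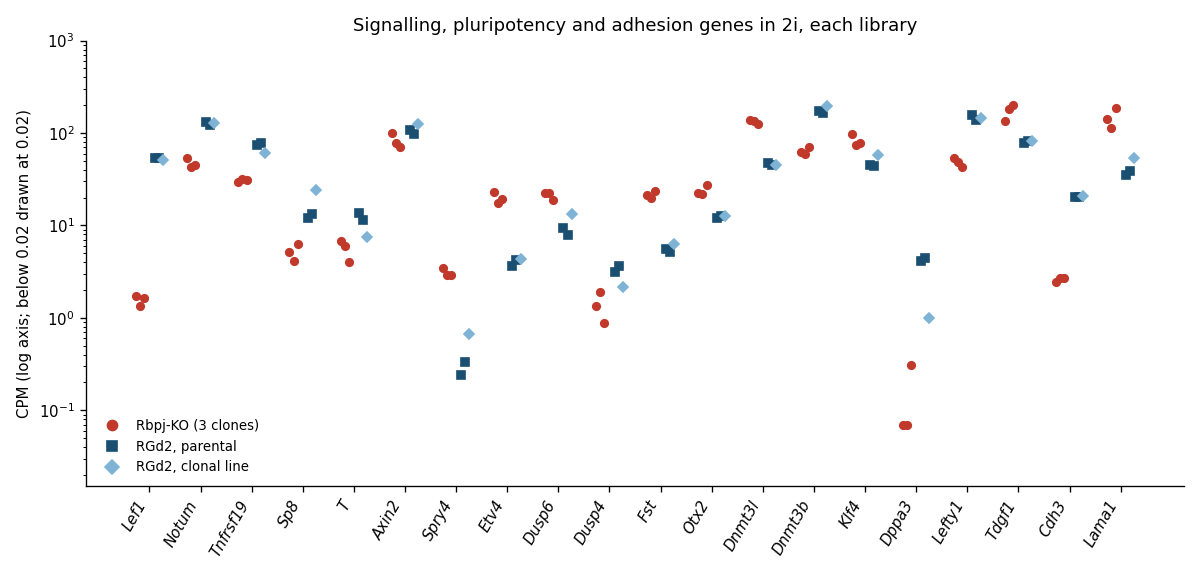
CPM per library (y axis, log scale) of genes of the WNT, ERK, Nodal and pluripotency lists and of Cdh3 and Lama1, with Rbpj-KO and RGd2 as points of different colours. Lef1 lies between 1.36 and 1.72 CPM in the clones and above 51 CPM in RGd2, while Etv4, Fst and Dnmt3l lie higher in every clone.

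The 2-cell-like state is a passing state of a small share of ESCs in which genes of the early cleavage embryo, with the Zscan4 family at their head, switch on. Of the 28 members of its list in the table, 25 were tested and 14 reached 1 CPM, each through RGd2, and these 14 fell (0 rose, median -5.64 with spike-ins and -5.55 with TMM, and -4.67 with members at the floor taken at their bound). Members that reach the minimum in RGd2 alone had to differ, and with no minimum on expression 24 were called lower with spike-ins. The list was chosen with earlier results of these data known. Zscan4c was at 0.149, 0.237 and 0.371 CPM in Rbpj-KO and 11.3, 12.7 and 5.01 CPM in RGd2 (log2 fold change -5.29, SE 0.61, adjusted p = 2.76e-08), Zscan4d at 0.224, 0.271 and 0.371 CPM in Rbpj-KO and 13.7, 14.4 and 1.5 CPM in RGd2 (log2 fold change -5.25, SE 0.69, adjusted p = 3.94e-07) and Zscan4a at 0.0747, 0.17 and 0.185 CPM in Rbpj-KO and 12.5, 14 and 1 CPM in RGd2 (log2 fold change -6.08, SE 0.72, adjusted p = 4.89e-08). Every clone was below every RGd2 library, which the rule for leading genes requires, and the clonal RGd2 library was the lowest of its group. Tmem92 was at 4.64, 4.24 and 0.668 CPM in RGd2 and at least 24.9-fold lower in the clones, the pseudogene Zscan4-ps3, outside the list, at least 42.3-fold, Usp17lc at least 15.5-fold and Sp110 at least 11.9-fold.

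Between 48.4% and 95.3% of the 50-base windows of each Zscan4 transcript also occur in another member. Only unique alignments were counted, so the level of a single Zscan4 gene leaves out reads that matched several members equally and is uncertain. The promoters of these genes are alike as well, as the windows below show, with the TATA letters TATAAAA in capitals. They are printed in the direction of transcription from GRCm38.p6, at chr7:10905022-10905121 (minus), chr7:11005651-11005750 (plus), chr7:11166154-11166253 (minus) and chr7:11397844-11397943 (plus), and any pair of them differs at 1 to 5 bases.
Zscan4b: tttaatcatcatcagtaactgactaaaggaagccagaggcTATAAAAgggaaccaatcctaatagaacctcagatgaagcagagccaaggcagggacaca
Zscan4c: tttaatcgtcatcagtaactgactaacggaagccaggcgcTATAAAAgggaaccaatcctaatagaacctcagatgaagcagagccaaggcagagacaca
Zscan4d: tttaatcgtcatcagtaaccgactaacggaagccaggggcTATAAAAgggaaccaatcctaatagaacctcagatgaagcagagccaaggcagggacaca
Zscan4f: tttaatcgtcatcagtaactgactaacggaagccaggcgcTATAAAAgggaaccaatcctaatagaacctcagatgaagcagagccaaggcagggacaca

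Summed over the 28 genes of the list in the table, 2-cell-like RNA came to 1.19, 1.93 and 2.54 CPM in Rbpj-KO and to 88.1, 96.4 and 15 CPM in RGd2. The sum does not depend on which of the listed members a counted read was given to. Only unique alignments were counted, so it leaves out reads that matched several members equally. It was also low in the 3 Etv5-KO clones, at 3.03, 4.61 and 3.19 CPM, and the clonal RGd2 line was lower than the parental line at N16h too (13.7 CPM against 123 and 122 CPM). In RGd2 cells kept for 5 passages in 2i the parental libraries were at 37.2 and 33.5 CPM and the clonal one at 29.1 CPM. Every mutant line was a picked clone, so the genotype and the derivation of a clone cannot be told apart for these genes beyond what the clonal RGd2 line shows.

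**Figure D4:**
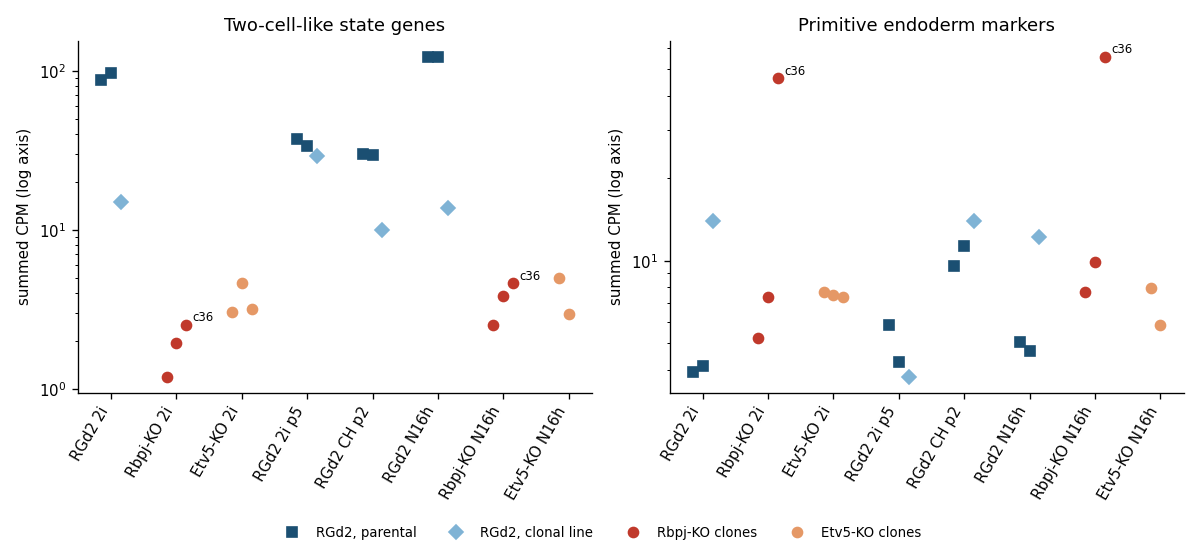
Summed CPM per library (y axis, log scale) of the 2-cell-like genes and of the primitive endoderm markers in 8 conditions, with c36 labelled. The Rbpj-KO libraries in 2i lie between 1.19 and 2.54 CPM for 2-cell-like genes, against 15 to 96.4 CPM in RGd2, and c36 lies at 46.5 CPM for primitive endoderm markers.

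Germ cell genes that promoter methylation holds down in most tissues fell more often than they rose, 8 against 2 of 22 expressed (median -0.54 with spike-ins and -0.46 with TMM). Over all expressed genes 6.79% fell and 5.44% rose. The number of lower germ cell genes lay between 5 and 11 with single libraries left out. Stra8, an early gene of meiosis, was at 1.19, 2.24 and 2.6 CPM in Rbpj-KO and 7.13, 6.68 and 11.2 CPM in RGd2 (log2 fold change -1.96, SE 0.24, adjusted p = 8.02e-08), but against RGd2 after 5 passages in 2i its direction turned (2.49, and 2.22 with TMM). Tex13b fell to 0.0747, 0.271 and 0.742 CPM from 3.83, 3.46 and 4.34 CPM (log2 fold change -3.25, SE 0.58, adjusted p = 8.25e-05), and Tdrd9, of the piRNA pathway, had a log2 fold change of -1.72. Rhox5, an X-linked homeobox gene, went up instead, at 38.5, 43.9 and 49 CPM in Rbpj-KO and 8.61, 9.39 and 8.69 CPM in RGd2 (log2 fold change 2.21, SE 0.17, adjusted p = 9.38e-13). In Etv5-KO Stra8 was at 10.2, 11.9 and 6.75 CPM and Rhox5 at 9.08, 9.11 and 10 CPM.

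Imprinted genes, expressed from 1 parental copy, were mixed, with 7 of 33 higher and 5 lower, beside 5.44% and 6.79% of all expressed genes (median -0.08). Members of the Dlk1-Dio3 region rose: besides Rian, the maternally expressed RNA Meg3 was at 132, 103 and 130 CPM in Rbpj-KO and 50.1, 48.8 and 39.9 CPM in RGd2 (log2 fold change 1.30, SE 0.19, adjusted p = 2.59e-06), and Dio3, a deiodinase, at 9.41, 6.44 and 10.4 CPM in Rbpj-KO and 0.972, 0.998 and 4.34 CPM in RGd2 (log2 fold change 2.54, SE 0.30, adjusted p = 4.54e-08). Peg10, a paternally expressed gene derived from a retrotransposon, was at 112, 100.5 and 126 CPM in Rbpj-KO and 41.6, 41.7 and 43.4 CPM in RGd2 (log2 fold change 1.36, SE 0.25, adjusted p = 0.000175). All were higher in every clone, but Peg10 lost its call under 1 of the 25 alternatives tried, with a lowest log2 fold change of 0.33. Cdkn1c, the cell cycle inhibitor p57, was at 0.672, 1.36 and 1.61 CPM in Rbpj-KO and 16.2, 15.7 and 1 CPM in RGd2 (log2 fold change -3.36, SE 0.76, adjusted p = 0.00177), and here the clonal RGd2 library lay within the range of the clones. Usp29 had a log2 fold change of -1.36, which did not pass the test without c28 or c36 (-1.11 and -1.13), nor with TMM without the second parental library (-1.18).

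Genes of the cell surface and its matrix were among those that changed. Laminins are trimers at the core of basement membranes. Of 8 expressed chains described here 2 rose and 1 fell, beside 5.44% and 6.79% of all expressed genes (median 0.14). Lama1, the alpha chain of the early embryonic laminin, was at 142, 113 and 188 CPM in Rbpj-KO and 35.6, 38.9 and 53.1 CPM in RGd2 (log2 fold change 1.78, SE 0.47, adjusted p = 0.00916). Every clone was at least 2-fold above any RGd2 library, and with TMM it no longer passed without c36 or either parental library (1.62, 1.70 and 1.78). Lama4 rose from a low level (log2 fold change 2.24, SE 0.39, adjusted p = 6.99e-05), and Lamb3 had a log2 fold change of -1.56. With spike-ins Lamb3 did not pass without c33 or the first parental library (-1.41 and -1.23).

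Of 9 expressed partners of laminin in the basement membrane 5 rose and 0 fell, beside 5.44% and 6.79% of all expressed genes (median 0.38). With spike-ins 2 rose without c36 and 3 without c28, the second parental or the clonal library. Col4a1 and Col4a2, which encode the chains of type IV collagen, were at 55.3, 54.6 and 292 CPM and 26.6, 24.7 and 132 CPM in the clones and at 13, 12.8 and 61.6 CPM and 5.32, 5.18 and 24.7 CPM in RGd2. The highest values were in c36, which also had the highest primitive endoderm markers, and the clonal RGd2 library was as high as the other clones. The log2 fold changes of 2.42 and 2.73 went to 1.12 and 1.44 without c36 and did not pass, and to 3.23 and 3.41 without the clonal RGd2 library, and with TMM Col4a1 did not pass without either parental library (2.08 each). Primitive endoderm is a known source of both collagens, and its part in this result was not tested. Fn1, fibronectin, was at 1218, 1094 and 1120.2 CPM in Rbpj-KO and 834, 782 and 704 CPM in RGd2 (log2 fold change 0.50, SE 0.14, adjusted p = 0.0112), and it did not pass with spike-ins without the clonal RGd2 library (0.34) or c28 (0.43). Sparc and Col18a1 had log2 fold changes of 0.52 and 0.38. With spike-ins Sparc lost its call without c36, the second parental or the clonal library (0.34, 0.47 and 0.45), and Col18a1 without c28 or the second parental library (0.28 each).

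Integrins and focal adhesion genes rose in 6 and fell in 2 of 28 expressed members (median 0.11). Shares over all expressed genes, 5.44% higher and 6.79% lower, stand beside each count of this paragraph. Tns1, a tensin that ties integrins to actin, was at 44.6, 39.5 and 36.6 CPM in Rbpj-KO and 5.86, 5.43 and 20.5 CPM in RGd2 (log2 fold change 2.17, SE 0.22, adjusted p = 2.25e-09). Parvb rose by 1.80 and Itga3, a laminin receptor chain, by 0.78, while Fermt3 and Itgb7, best known from blood cells, had log2 fold changes of -1.43 and -1.08. Actin and SRF target genes were balanced, 4 higher and 4 lower of 28 (median 0.00): Anxa2 and Cald1 were at 1.05 and 0.85, and Myl9, Flnc, Lgals1 and Des at -1.53, -1.22, -1.18 and -1.17 on the log2 scale. Anxa2 lost its call under 2 of the 25 alternatives tried, with a lowest value of 0.079. Myl9 and Des did not pass with spike-ins without the first parental library (-1.20 and -0.98), nor Myl9 without c33 (-1.30), nor Des with TMM without the second parental library (-1.02), and Myl9 turned to 0.33 (0.052 with TMM) against RGd2 after 5 passages. Among YAP/TEAD targets 3 of 17 rose and 1 fell (median 0.12). Ptpn14, a phosphatase that restrains YAP, was at 101, 88.4 and 81.7 CPM in Rbpj-KO and 33.5, 32.2 and 46.3 CPM in RGd2 (log2 fold change 1.25, SE 0.12, adjusted p = 6.02e-10), with Fjx1 and Wwc1 at 0.98 and 0.66.

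Of 24 expressed cadherins and junction genes 5 fell and 0 rose, beside 6.79% and 5.44% of all expressed genes (median 0.04). With TMM alone 2 rose, beside 10.9%. Cdh3, P-cadherin, was at 2.46, 2.68 and 2.69 CPM in Rbpj-KO and 20.4, 20.3 and 21 CPM in RGd2. It fell about equally in the 3 clones (log2 fold change -3.04, SE 0.27, adjusted p = 5.85e-11), and Etv5-KO cells, at 13.6, 13.6 and 13.4 CPM, lay between (difference -2.27, adjusted p = 1.68e-08). Cdh2, N-cadherin, was at 5.38, 6.61 and 5.81 CPM in Rbpj-KO and 14.3, 10.9 and 12 CPM in RGd2 (log2 fold change -1.16, SE 0.20, adjusted p = 6.32e-05). Cdh13 and Pcdh19 had log2 fold changes of -1.90 and -1.08, and Epcam one of -0.70 with overlapping groups. Cdh13 lost its call under 3 of the 25 alternatives tried, and its highest log2 fold change among them was -0.24. Without the first parental library Pcdh19 (-0.89) and Epcam (-0.51) did not pass with spike-ins, and Pcdh19 did not without c33 (-1.06) or, with TMM, without c36 (-1.02). Of 8 expressed keratins and partners, Krt8 and Krt18 were at 1.81 and 0.86 and Grhl2, an epithelial transcription factor, at -1.82. Krt18 was highest in c36 and with spike-ins did not pass without it (0.46) or without the second parental library (0.65).

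Counts of called genes in this paragraph stand beside 5.44% higher and 6.79% lower over all expressed genes. Of 29 G1 genes 1 rose and 5 fell (median -0.10). Ccnd2 and Ccne1, which drive entry into S phase, were at -1.32 and -0.50, and Cdkn2b, a CDK4 inhibitor, at 0.98. Ccnd2 did not pass with spike-ins without the first parental library (-0.94) or with TMM without c28 or c33 (-1.14 and -1.23), nor Cdkn2b with TMM without the first parental library (0.84). All of these turned direction against RGd2 after 5 passages in 2i: Ccnd2 to 1.01, Ccne1 to 0.60 and Cdkn2b to -0.34 with spike-ins (0.75, 0.31 and -0.63 with TMM). Of 24 p53 targets 2 rose and 1 fell (median 0.05), the higher ones being Pmaip1 and Perp (log2 fold change 2.33, SE 0.21, adjusted p = 1.26e-10). Glycolysis had 1 higher (Slc2a3, a glucose transporter, 0.50) and 1 lower (Ldhb) of 21. Cholesterol and fatty acid synthesis had 2 higher and 1 lower of 31, with Scd1 and Msmo1 at 0.50 and 0.41. With TMM 9 were higher, beside 10.9% of all expressed genes under that scaling. Of 36 lysosome genes 3 rose and 4 fell, and the cysteine proteases Ctsc and Lgmn were at 1.5 and 1.34. Of 24 genes of the amino acid starvation and unfolded protein responses 2 rose and 1 fell (Stc2, -1.08). Bnip3, a mitophagy receptor, was the only called hypoxia target of 13, at 17.9, 18.3 and 13.7 CPM in Rbpj-KO and 44.7, 46.6 and 47.6 CPM in RGd2 (log2 fold change -1.54, SE 0.13, adjusted p = 1.28e-11). Of 10 mitochondrial transcripts 1 fell (mt-Cytb, -0.49, but 0.14 with spike-ins against RGd2 after 5 passages) and 0 rose.

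Markers of cell types that the cultures could hold were read last. The 11 ES cell markers were all expressed and summed to 5474, 5120 and 5141 CPM in Rbpj-KO and to 4711, 4718 and 5137 CPM in RGd2, and under both scalings 2 rose and 0 fell. The primitive endoderm list had 5 expressed members, of which Dab2 rose (log2 fold change 2.37, SE 0.66, adjusted p = 0.0149). Dab2 was at 1.64, 2.44 and 13.8 CPM in Rbpj-KO and 0.972, 0.942 and 2.34 CPM in RGd2, so it was highest in c36, and it did not pass without c36 (0.78) or without either parental library (2.37 and 2.14). Of the 11 markers 8 were highest in c36 among all 6 libraries, and their part in the results above was not tested. Trophoblast and mesendoderm markers share Eomes, a T-box factor, which was at 50.8, 46 and 41 CPM in Rbpj-KO and 9.12, 10 and 24.1 CPM in RGd2 (log2 fold change 1.79, SE 0.21, adjusted p = 2.6e-08). The other mesendoderm markers that changed, T and Evx1, fell (Evx1, -2.39), and among trophoblast markers Tead4 rose by 0.84 and Fgfr2 had a log2 fold change of -1.01. In all, 2 of 5 expressed trophoblast markers rose and 1 fell, and 1 of 6 expressed mesendoderm markers rose and 2 fell. Over all expressed genes 5.44% rose and 6.79% fell. The 11 trophoblast markers summed to 105 to 119 CPM in Rbpj-KO and 63.8 to 86.2 CPM in RGd2, the 11 mesendoderm markers to 51.0 to 61.7 CPM and 25.7 to 39.4 CPM, and Hand1 and Tpbpa were at 0 in every library. Eomes counts in both sums. The median log2 fold change of expressed members went the other way, at -0.39 for trophoblast and -0.23 for mesendoderm (-0.29 and -0.21 with TMM).

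Neural markers were split as well. Nes, the intermediate filament nestin, was at 74.4, 83.4 and 85.3 CPM in Rbpj-KO and 20.9, 19.6 and 8.85 CPM in RGd2 (log2 fold change 2.10, SE 0.18, adjusted p = 2.23e-11), with separate groups and 6.88, 8.19 and 5.8 CPM in Etv5-KO (difference 3.64, adjusted p = 5.85e-18). Sox1, from a low level, rose by 1.84 (1.31 and not called with spike-ins without c36), while Tubb3, a neuronal tubulin, was at 43.2, 43.1 and 41.3 CPM in Rbpj-KO and 84.7, 83.5 and 104 CPM in RGd2 and fell (log2 fold change -1.14, SE 0.12, adjusted p = 2.25e-09). Against RGd2 after 5 passages in 2i Tubb3 turned to 0.43 (0.14 with TMM). The 11 neural markers summed to 123 to 135 CPM in Rbpj-KO and 111 to 118 CPM in RGd2. Fibroblast feeder markers summed to 7.53 to 7.99 CPM and 9.37 to 11.2 CPM, and neither of the 2 expressed members passed the test.

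**Figure D5:**
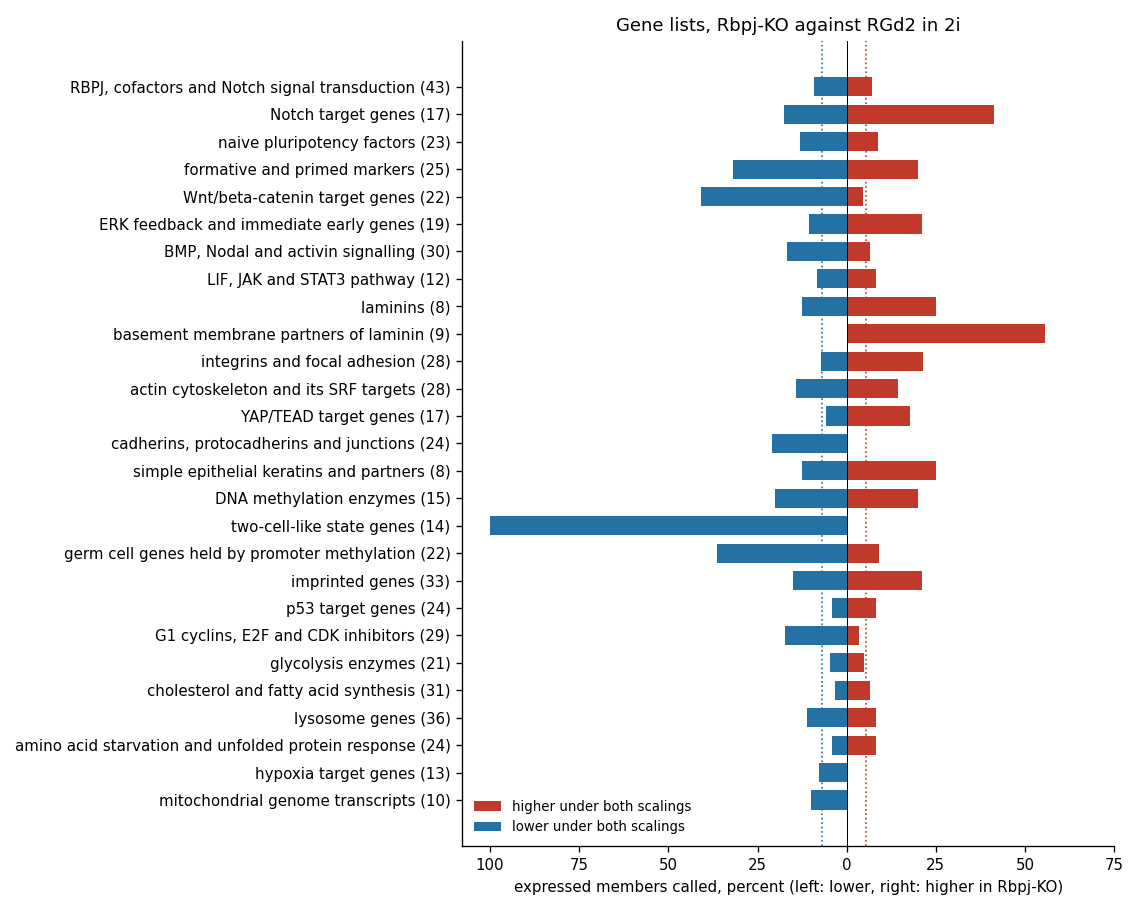
Percent of the expressed members of each gene list called higher or lower in Rbpj-KO in 2i under both scalings (x axis, percent), with dotted lines at the shares over all expressed genes, 5.44% higher and 6.79% lower. The bar of the 2-cell-like genes (14 of 14 lower) holds members that reached 1 CPM in RGd2 alone and so had to differ, and Notch targets (7 of 17) and the partners of laminin (5 of 9) have high shares on the higher side. The lists were chosen with earlier results of these data known, so a high share is not independent evidence. With spike-ins fewer partners of laminin rose without c36.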

How the data were processed

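Total RNA was depleted of ribosomal RNA and sequenced as strand-specific paired-end libraries. The authors used Trim Galore for trimming and TopHat2 for alignment to mm10 (GRCm38) plus the ERCC sequences, and counted unique primary alignments per Gencode M14 gene with featureCounts, so the deposited values are raw counts of genes and spike-ins. From these counts CPM (per 1000000 gene counts), FPKM (from the deposited gene lengths) and log2 fold changes were computed here. Gene names were matched to gene IDs, and 193 IDs without a symbol (0.0259% of counts) were kept in the totals.

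edgeR 4.0.16 (R 4.3.3) fitted all 32 libraries in 11 groups to 19037 genes that passed filterByExpr, with size factors as the median of ratios of the 52 of 92 spike-ins above 0 in every library, or TMM, and Benjamini-Hochberg adjustment over those genes. A call needs an adjusted p under 0.05 and a mean of 1 CPM. DESeq2 1.42.0 was an alternative. In data simulated for this comparison over 19037 genes, 97 of 100 genes changed 2-fold, 100 of 100 changed 4-fold and 9 of 18837 unchanged genes were called. The simulation gave every gene the same spread, changed only genes with ample counts and held no library that stood apart. It therefore shows that the procedure runs as intended, and its rates do not carry over to the real libraries or to genes near 1 CPM. Where all libraries of a group hold 3 counts or fewer, a fold is a bound taken at 3 counts per library. Each SE is the log2 fold change divided by the square root of the quasi-likelihood F, so it includes the spread between libraries. Bounds taken at the floor cover counting error only.

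Named genes are Rbpj, the 12 per direction with the largest fold change that were called and had separate libraries under both scalings (at least 10 counts, no Gm or Rik symbol), the 5 most abundant per direction that changed at least 1.5-fold, and up to 6 members of each list, called ones by size first. 1 gene of the lists is not reported here. The lists and this rule were chosen with earlier results of these data known. Depth ran from 5986857 to 37042477 gene counts per library. Samples were grouped by genotype and culture in the labels. Other scalings, filters, thresholds, a fit of the 6 libraries alone and the omission of each library were tried.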

Additional observations from a re-analysis of the deposited data

Results flagged for a closer look

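For 3 genes the difference between Rbpj-KO and RGd2 in 2i was not the same as at N16h, by a contrast of both effects in edgeR's quasi-likelihood model with Benjamini-Hochberg adjustment that passed under both scalings. Such a contrast was computed for 35 named genes. Each uses the same 3 clones, and the same RGd2 lines, in other libraries. The model held no term for the clone or line, so these libraries were treated as independent.

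Spry4 had a log2 fold change of 3.10 in 2i and 0.66 at N16h, a change of -2.44 (adjusted p = 8.16e-07, and -2.69 with TMM). At N16h it was at 127, 120.2 and 137 CPM in Rbpj-KO and 85.3, 80.2 and 97.4 CPM in RGd2, against 3.43, 2.88 and 2.88 CPM and 0.243, 0.333 and 0.668 CPM in 2i, so both groups were far higher at N16h.

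Prickle1 went the other way, from 2.96 to 5.44, a change of 2.48 (adjusted p = 6.77e-08, and 2.24 with TMM). It was at 73.1, 72 and 78.2 CPM in Rbpj-KO and 1.74, 1.95 and 1.82 CPM in RGd2 at N16h.

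Trh went from 1.73 to 4.36, a change of 2.63 (adjusted p = 1.04e-08, and 2.42 with TMM), with 888, 828 and 841 CPM in Rbpj-KO and 48.7, 48.7 and 36.5 CPM in RGd2 at N16h. Groups of 3 libraries were too small for a search for single outlying libraries.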

How the results depend on the processing

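The number of higher genes with spike-ins, 719, became 1435 with TMM, 1377 with DESeq2's median of ratios on the genes, 387 with only the 6 libraries in the fit and 476 to 1214 with 1 library left out (fewest without the second, most without the first parental library). The 932 lower genes became 483 with only the 6 libraries, 541 to 1740 with 1 library left out (fewest without the first parental library, 598 without c33, most without the clonal one) and 1404 without both c36 and the clonal RGd2 library. With 1 library left out, calls under both scalings ran from 474 to 1083 higher and from 541 to 1248 lower (586 without c33), and TMM calls from 1085 to 1628 and from 782 to 1248. Rbpj stayed lower throughout, between -1.46 and -2.20. The other alternatives left these counts within 1.5 times.

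Alternatives chosen after seeing the data were the joint omission of c36 and the clonal RGd2 library and the use of RGd2 cells after 5 passages in 2i as the control, whose culture differs as well as their genotype. The latter gave 5639 higher genes with spike-ins and 2475 with TMM and with both scalings, and 2313 lower genes with TMM. Against it 16 named genes turned direction (spike-ins, then TMM), Gm26870 as given below and Stra8 (2.49, 2.22), Inhbb (1.32, 1.06), Ccnd2 (1.01, 0.75), Sox4 (0.63, 0.36), Ccne1 (0.60, 0.31), Dnmt3a (0.43, 0.15), Tubb3 (0.43, 0.14), Myl9 (0.33, 0.052), Gadd45a (-0.055, -0.34), Cdkn2b (-0.34, -0.63), and, under 1 scaling, Dppa2 (0.079), mt-Cytb (0.14), Notch3 (-0.040), Id4 (-0.25) and Tdgf1 (-0.0057). Gm26870 turned to 2.39 without the clonal RGd2 library, 2.89 without it and c36, and 2.47 against the later passage (2.5, 3.01 and 2.12 with TMM, where it ran from -5.67 to 2.5 with 1 library left out). The causes were not tested.

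Of 133 named genes 66 kept their direction and call under all 25 alternatives (39 higher, 27 lower), 14 lost the call or turned without c36, 5 without the clonal RGd2 library, 26 when some single library was left out, 16 with only the 6 libraries, 22 with a minimum of 1 FPKM in place of 1 CPM, and 41 lost the call or turned against the later passage. No paired analysis of Rbpj-KO against RGd2 was possible because the libraries compared share no replicate number. The depth of the clonal RGd2 library limits genes near 1 CPM, which hold 5.99 counts there.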

Other observations

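Some values lie outside the lists. The non-coding gene 1700108F19Rik on chromosome 14, chosen after its values were seen, was at 4.63, 5.2 and 3.9 CPM in Rbpj-KO and 0, 0.06 and 0 CPM in RGd2 in 2i. With RGd2 at or below 3 counts in each library it was at least 21.8-fold higher (adjusted p = 1.99e-12 by edgeR's quasi-likelihood test). It was at 8.35, 8.7 and 5.71 CPM in the same clones at N16h and at 0.08, 0.33 and 0.29 CPM in Etv5-KO in 2i.

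Clone c36 held 13 genes at least 4-fold above the other clones where those clones were alike, and 4 as far below. These include H19, an imprinted RNA, at 0.373, 0.475 and 3.62 CPM in the clones, and Foxq1, at 0.82, 0.85 and 5.01 CPM, both chosen after their values were seen. Clone c33 held 0 such genes above and 6 below, and c28 held 11 and 29.

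The absence of Y-linked RNA was a property of the clonal RGd2 line in all its 5 libraries, where Ddx3y lay between 0 and 0.514 CPM, against 39.0 to 95.5 CPM in the 10 parental libraries and 32.1 to 48.6 CPM in the Rbpj-KO clones in 2i.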
